A study of Danio rerio with 4 samples.

Results

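Pharyngeal arch cells of zebrafish (Danio rerio) embryos mutant for both nr2f2 and nr2f5 were set against the same sorted cells of embryos carrying the sox10:Gal4 driver. The comparison takes in all 31953 genes of the table and 3 of its 4 RNA-seq libraries. The mutant embryos gave 2 libraries, called mutant 1 and mutant 2, and the control embryos gave 1. Cells positive for fli1a:GFP, which is active in arch crest and blood vessels, and also for sox10:DsRed, which is active in the neural crest lineage, were sorted from all groups at the 36 hpf stage. Embryos were kept at 28.5 °C to 27 hpf and at 22 °C after that. Mutants were recognised by ocular coloboma, a gap in the eye, whereas control embryos were genotyped on fin biopsies taken at 24 hpf. The labels state the driver and the biopsy for the control and not for the mutants, so their effect and that of the mutations cannot be told apart. The mutants were pooled from 37 and 84 embryos (18858 and 30655 sorted cells, not assigned to a replicate in the labels) and the control from 69 embryos (86517 cells). The labels describe no alleles and give no clutch for either mutant library. The fourth library, of sox10:Gal4; UAS:Nr2f5 embryos, is a single library, with the same driver and biopsy as the control, and is given beside the results it touches.

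Nr2f proteins (COUP-TFs) are orphan nuclear receptors that bind DNA and act largely as repressors. Cranial neural crest cells in the mandibular and hyoid arches take on upper jaw or lower jaw identity: endothelin 1 and Bmp signals turn on the dlx5a/dlx6a, hand2 and msx genes of the lower jaw, while Jagged-Notch signalling and nr2f genes mark the upper jaw. The comparison asks which genes of arch cells differ where nr2f2 and nr2f5 are mutated.

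Levels are given as RPM, the share of a library's reads that fell on a gene times 1000000, on an assumed scale and not divided by gene length, so levels are compared between libraries and not between genes. At that scale 1 read was worth 0.0287 RPM in mutant 1, 0.0441 in mutant 2 and 0.0334 in the control, from 34787185, 22677729 and 29943404 implied reads. A count of 0 allows up to 3 reads, or 0.0862, 0.132 and 0.10 RPM in those libraries. Differences are on the log2(RPM + 1) scale, mutant mean minus control, which understates the change of low genes. A gene is called where limma's adjusted p is under 0.05, over the 11391 genes that averaged 1 RPM or more. With 1 control library, that test measures a difference against the spread between the mutant libraries and assumes that the control varies like them.

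Of the 11391 genes tested, 118 were called, which is 1.04%. Only 3 of these rose in the mutants (0.0263%) and 115 fell (1.01%). By size alone, 676 genes (5.93%) were at least 2-fold apart from the control in both mutants, of which 66 genes (0.579%) were higher and 610 (5.36%) lower. All 118 called genes were among the 676. The adjusted p of 51 of the calls lay between 0.04 and 0.05, and the number called ran from 0 with no filter on low values to 413 with a minimum mean of 5 RPM. Without the UAS:Nr2f5 library in the fit, 350 genes were called, 16 of them higher, and these included all 118.

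**Figure D1:**
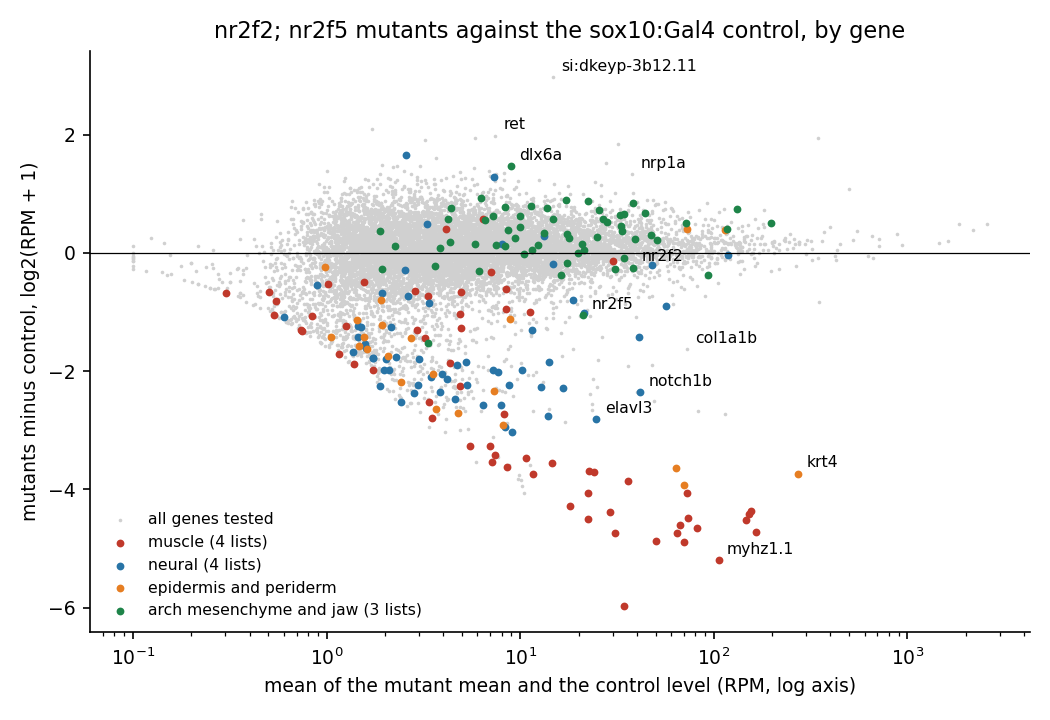
Difference between the mutants and the control for each gene tested (y axis, log2(RPM + 1)) against its level, the mean of the mutant mean and the control (x axis, RPM, log axis; levels under 0.1 are drawn at 0.1). Muscle, neural and epidermal genes lie mostly below 0, down to -5.97, and arch and jaw genes lie between -1.52 and 1.47.

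Of the mutated genes, nr2f5 (ENSDARG00000033172) stood at 12.2 RPM in mutant 1 and 14.7 RPM in mutant 2, against 28.8 RPM in the control. Both mutants were lower, by -1.05 ± 0.20 on the log2 scale (SE), with a limma adjusted p of 0.091. The UAS:Nr2f5 library, named for misexpression of this gene, had 30.3 RPM of it, near the control. The transcript of nr2f2 (ENSDARG00000040926) stood at 38.9 and 30.9 RPM in the mutants, against 41.4 RPM in the control (-0.25 ± 0.20, limma adjusted p = 0.692). Transcript levels of these genes say nothing certain of their proteins. Among the other family members, nr2f1a, which shares the upper jaw role in zebrafish, had 54.6 and 55.1 RPM in the mutants and 46.8 RPM in the control. The levels of nr2f1b were 29.8 and 37.1 RPM in the mutants, on both sides of the 29.9 RPM of the control. The nr2f6a gene had 19.6 and 20.8 RPM in the mutants against 16.1 RPM in the control, and nr2f6b had 9.20 and 12.2 RPM against 11.1 RPM. None of the 6 nr2f genes was called.

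The genes behind the sort were present in every library. The gene fli1a, whose promoter drives GFP, had 51.5 and 48.1 RPM in the mutants and 38.3 RPM in the control. The gene sox10 had 17.4 and 24.9 RPM in the mutants and 8.72 RPM in the control. The defining arch genes prrx1a, prrx1b, twist1a, twist1b, dlx2a, foxd1 and pdgfra were detected in all 3 libraries at 11.8 RPM or more. The control also held transcripts of other cell types. In it 30 genes of the fast muscle list, 29 of them tested, made up 1.91% of gene reads. Their share was 0.0597% in mutant 1 and 0.0802% in mutant 2. In bulk samples, fewer cells of a type and less RNA per cell cannot be told apart. The part of these transcripts in the results below was not tested.

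No gene of the arch and jaw lists was called. In the lists of arch mesenchyme, early neural crest, upper jaw and lower jaw, 73 different genes were tested, of which 47 exceeded the control in both mutants and 13 fell short of it in both. Over all genes tested the shares were 39.1% and 33.2%, and the same shares stand beside the counts of each list below. The median difference over the 73 genes was 0.33, against 0.03 over all genes tested. Scaled to the early neural crest genes in place of the library total, the median of all genes moved to -0.26. The 14 crest genes used for this had a median of 0.43 before it and are among the 73 genes. Arch and jaw medians near 0 after crest scaling are therefore no separate check, and are to be read against -0.26. Differences near 0 therefore take the sign of the scaling, and list medians are best read against the median of all genes. Without crest scaling, the median over all genes also rose with mean level, taken over all 4 libraries. It was -0.03 for genes of 1 to 5 RPM and 0.16 for those at 100 RPM or more.

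Of the 15 tested upper jaw genes, 9 exceeded the control in both mutants and 5 were under it, with a median of 0.38 (0.02 after crest scaling). The Notch receptor gene notch2 had 170 and 161 RPM in the mutants, against 98.8 RPM in the control (0.74 ± 0.17, limma adjusted p = 0.125). The ligand gene jag1b had 35.3 and 40.6 RPM in the mutants and 28.9 RPM in the control. Of the Notch effectors on this list, hey1 had 83.9 and 85.1 RPM in the mutants and 59.1 RPM in the control, and her6 had 220 and 245 RPM in the mutants and 163 RPM in the control. The transcription factor gene eya1 had 30.1 and 34.3 RPM in the mutants and 21.1 RPM in the control. The upper jaw genes pou3f3a, with 13.0 and 15.3 RPM in the mutants against 18.5 RPM, and pou3f3b, with 26.6 and 29.2 RPM against 33.9 RPM, lay below the control. So did the receptor gene notch3, with 76.6 and 85.2 RPM in the mutants and 105 RPM in the control.

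Of the 25 tested genes of the lower jaw and joint, 16 exceeded the control in both mutants and 4 were under it, with a median of 0.32 (-0.02 after crest scaling). The homeobox gene dlx6a had 14.4 and 12.9 RPM in the mutants, against 4.27 RPM in the control. It is the single member at least 2-fold higher in both mutants (1.47 ± 0.32, limma adjusted p = 0.109). Its neighbour dlx5a had 36.2 and 28.1 RPM in the mutants and 18.9 RPM in the control. The gene hand2, which specifies the ventral part of the arch, had 34.8 and 23.8 RPM in the mutants and 15.2 RPM in the control. The other lower jaw dlx genes were closer: dlx3b had 16.6 and 13.2 RPM in the mutants against 11.6 RPM, and dlx4a had 20.8 and 18.3 RPM against 15.4 RPM. For dlx4b, 10.3 and 5.82 RPM in the mutants lay on both sides of the 6.98 RPM of the control.

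Genes of the jaw joint region and its neighbours gave a mixed picture. The joint gene nkx3.2 had 16 and 13.6 RPM in the mutants and 8.05 RPM in the control. The gene barx1, a repressor of joint fate in zebrafish, had 45.1 and 38.9 RPM in the mutants and 26.3 RPM in the control. The homeobox gene msx1a had 10.8 RPM in both mutants and 5.88 RPM in the control. In the other direction, irx5a had 1.32 and 1.15 RPM in the mutants against 5.41 RPM in the control, and is the single member at least 2-fold lower (-1.52 ± 0.36, limma adjusted p = 0.129). The endothelin receptor gene ednraa had 19.1 and 20.5 RPM in the mutants and 19.7 RPM in the control, the smallest difference of the list.

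Among the 22 tested arch mesenchyme genes, 17 exceeded the control in both mutants and 1 was under it, with a median of 0.33 (-0.01 after crest scaling). The homeobox gene prrx1a had 48.9 and 50.0 RPM in the mutants and 27.2 RPM in the control. The basic helix-loop-helix gene twist1b had 22.9 and 22.6 RPM in the mutants and 11.8 RPM in the control. The mesenchymal growth factor receptor gene pdgfra had 130 and 137 RPM in the mutants and 100.9 RPM in the control. Over the 14 early neural crest genes the median was 0.43, with snai2, a repressor of epithelial genes, at 45.8 and 37.2 RPM in the mutants and 19.9 RPM in the control. Summed over the list, arch mesenchyme genes reached 588 and 590 RPM in the mutants, 304 RPM in the UAS:Nr2f5 library and 442 RPM in the control.

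**Figure D2:**
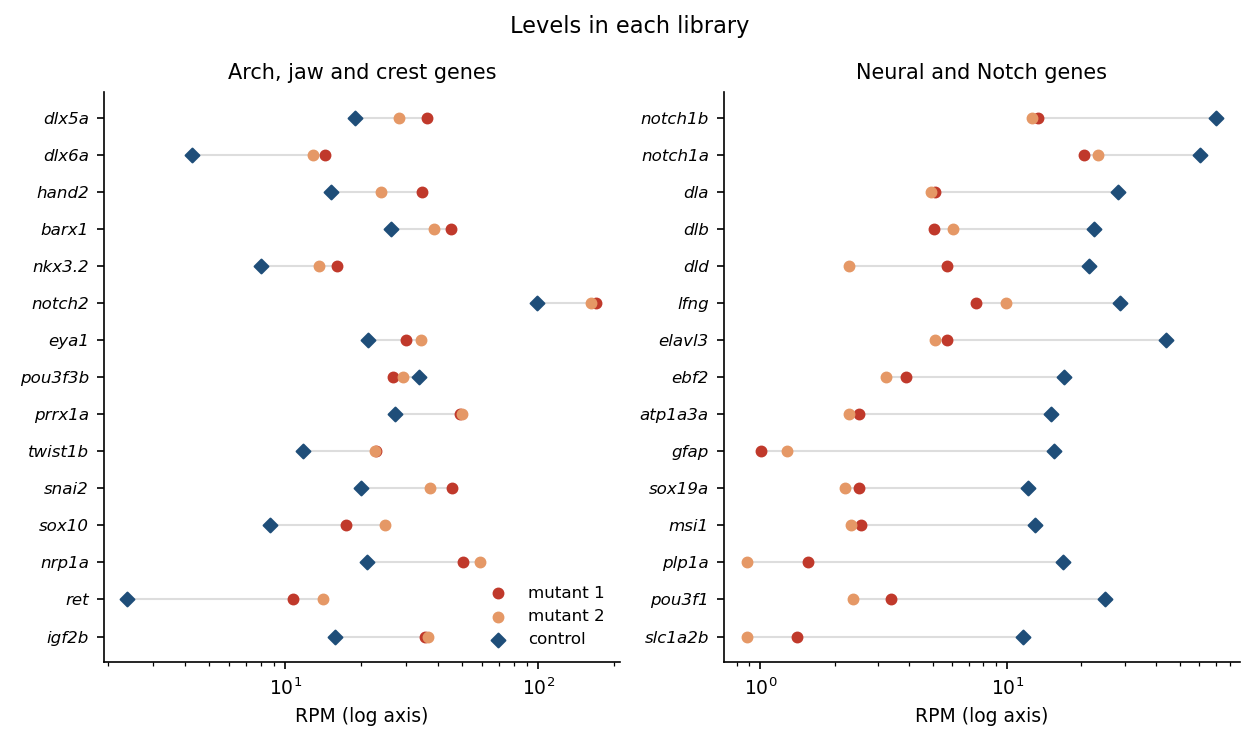
Levels of arch, jaw and crest genes (left) and of neural and Notch genes (right) in mutant 1, mutant 2 and the control (x axis, RPM, log axis). In the left panel both mutants lie right of the control for every gene drawn except pou3f3b, and in the right panel both lie left of it for every gene drawn. The genes drawn are a selection. Of 73 tested arch, crest and jaw genes, 47 exceeded the control in both mutants and 13 fell short of it in both. Among the 16 Notch genes off the progenitor list, 8 exceeded it and 7 were under it. The neural genes phox2bb and erbb3b, not drawn on the right, also exceeded it.

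Of the 12 frontonasal identity genes, none was called and 2 were at least 2-fold lower in both mutants. These were otx2, with 0.345 and 0.661 RPM in the mutants and 4.04 RPM in the control, and foxg1a, with 0.345 and 0 RPM in the mutants and 2.74 RPM in the control. Both also mark brain and eye. The Hox list holds genes of arches behind the mandibular one, but its genes are not limited to arch cells. It had a median of -0.59, with 7 of 11 genes below the control in both mutants, 1 above it in both and none called. Over all genes tested, 33.2% were below the control in both mutants and 39.1% above it. The gene hoxb3a had 9.80 and 10.01 RPM in the mutants, against 19.7 RPM in the control, and hoxa3a had 2.98 and 2.47 RPM against 8.25 RPM. The hyoid arch selector hoxa2b had 9.57 and 5.16 RPM in the mutants, on both sides of the 6.65 RPM of the control.

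Among genes of receptors and ligands, nrp1a and ret rose in the mutants. The neuropilin gene nrp1a, a receptor for semaphorins and Vegf, reached 50.6 and 59.1 RPM in the mutants, against 21.1 RPM in the control (1.33 ± 0.19, limma adjusted p = 0.0477). It was the 1 called gene of 21 tested semaphorin, neuropilin and plexin genes, which had a median of 0.21. The ligand gene sema3gb had 0.230 and 0.132 RPM in the mutants and 2.77 RPM in the control, and was the one member at least 2-fold lower. The gene ret, the Gdnf receptor of enteric and autonomic crest, reached 10.7 and 14.2 RPM in the mutants, against 2.37 RPM in the control (1.98 ± 0.29, limma adjusted p = 0.0499). The third called gene that rose, si:dkeyp-3b12.11, reached 32.0 and 22.0 RPM in the mutants, against 2.51 RPM in the control (2.97, limma adjusted p = 0.0167). The UAS:Nr2f5 library also lay above the control for ret, at 6.12 RPM, and for si:dkeyp-3b12.11, at 6.46 RPM. For nrp1a it lay below the control, at 17.6 RPM. For all 3 genes both mutants lay above the control by at least 2-fold, but ret lost its call with median-ratio scaling and a pseudocount of 5, nrp1a and ret lost it with crest scaling, and none of the 3 kept it with a pseudocount of 0.1, no filter or no trend.

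The enteric and autonomic crest list had the highest median of the 43 lists, 0.69 over the 6 tested of its 12 genes. Of the 6, 5 were above the control in both mutants, against 39.1% of all genes tested. Some are also on other lists, such as hand2 (lower jaw) and phox2bb (neurons). The transcription factor gene phox2bb had 11.01 and 10.5 RPM in the mutants, against 3.81 RPM in the control (1.29 ± 0.28, limma adjusted p = 0.109). In the glial list, the neuregulin receptor gene erbb3b had 2.90 and 6.04 RPM in the mutants and 0.668 RPM in the control. These genes had higher values in both mutants while most neural genes had lower ones.

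The Bmp, Fgf and Tgf-beta lists together had 40 different genes tested, with 31 exceeding the control in both mutants and 1 under it, and none called. Over all genes tested, 39.1% exceeded the control in both mutants and 33.2% were under it. For Bmp response genes the median was 0.58 (0.25 after crest scaling). Its direct target id1 had 137 and 102 RPM in the mutants, against 65.0 RPM in the control, and id3 had 29.2 and 30.7 RPM against 18.4 RPM. The inhibitory Smad gene smad6b had 21.9 and 25.0 RPM in the mutants and 13.3 RPM in the control. The Fgf response list had a median of 0.35 (-0.01 after crest scaling). Its target gene etv4 had 6.58 and 7.58 RPM in the mutants and 3.07 RPM in the control, and the feedback inhibitor gene spry4 had 22.5 and 23.6 RPM against 15.4 RPM.

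The Tgf-beta and Ccn list had a median of 0.47, with 12 of 15 genes above the control in both mutants. Its genes ctgfb, which encodes a matrix protein of the Ccn family, and ltbp3, which encodes a Tgf-beta binding protein, were at least 2-fold higher in both mutants. The levels of ctgfb were 8.91 RPM in both mutants and 2.67 RPM in the control, and those of ltbp3 were 8.54 and 8.11 RPM in the mutants and 2.94 RPM in the control. The growth factor gene igf2b had 35.6 and 36.7 RPM in the mutants, against 15.8 RPM in the control (1.15 ± 0.18, limma adjusted p = 0.0568). It was the one gene of 8 on the Igf list past 2-fold. The Hedgehog list (12 tested), the Wnt list (9), the Pdgf and Cxcl12 list (10) and the retinoic acid list (16) had no called gene, with medians of 0.17, -0.05, 0.27 and 0.15. Among them, the retinoic acid receptor gene rargb had 19.6 and 15.4 RPM in the mutants and 8.95 RPM in the control, and the retinol dehydrogenase gene rdh10a had 0.632 and 0.529 RPM against 2.84 RPM.

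**Figure D3:**
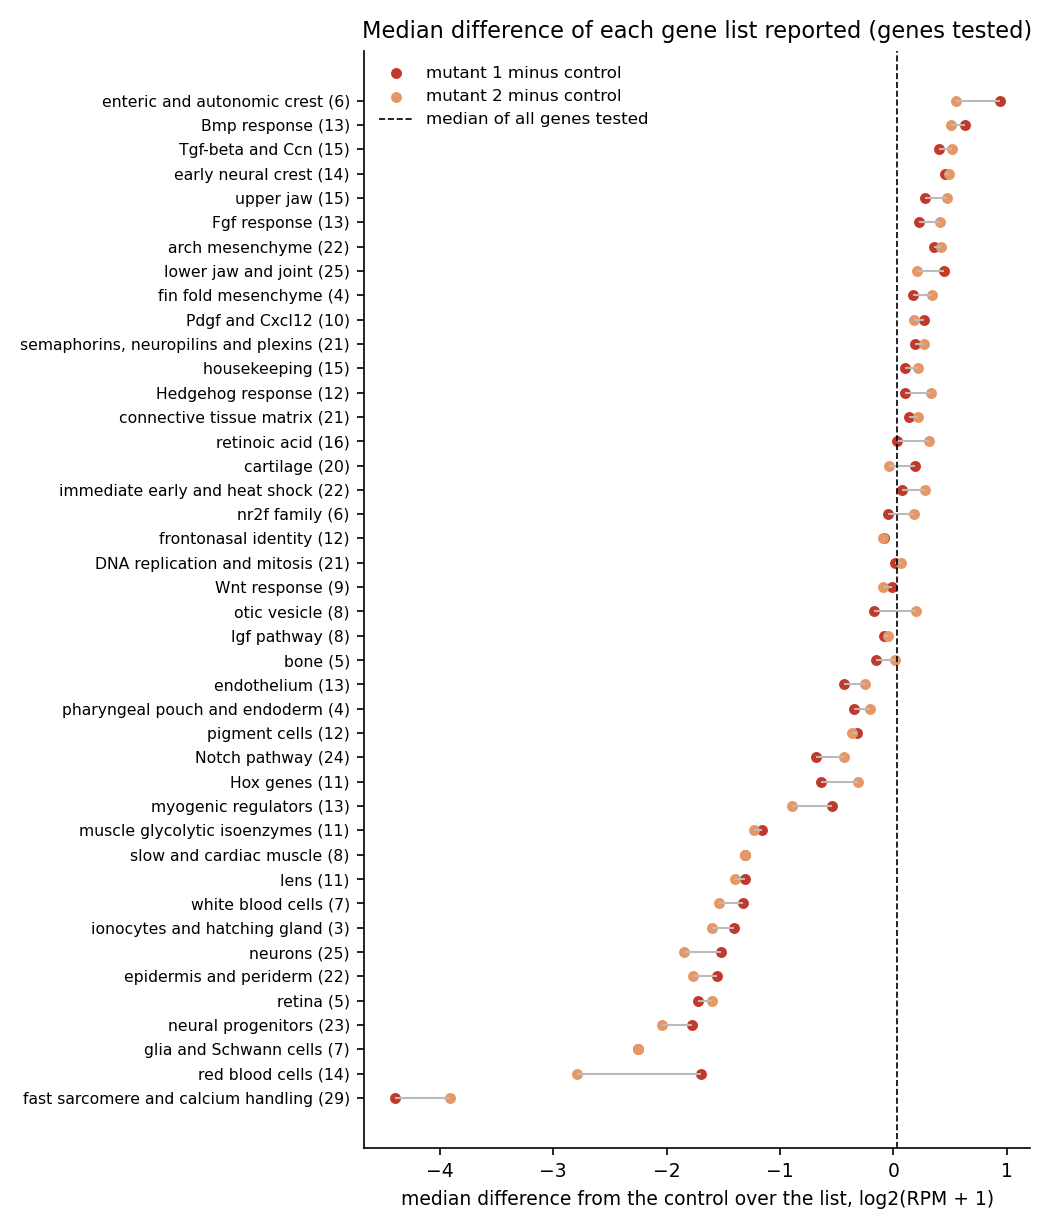
Median difference from the control over the tested genes of each list reported (x axis, log2(RPM + 1)), for mutant 1 and mutant 2, with the number of genes tested in brackets; the dashed line is the median of all genes tested, 0.03. Fast sarcomere genes lie lowest and enteric and autonomic crest genes highest in both mutants.

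Neural genes were among those that fell. Of the 60 genes tested in the lists of neurons, neural progenitors, glia and retina, 15 were called lower and none higher. By size, 42 were at least 2-fold lower in both mutants and 2 at least 2-fold higher. The median difference was -1.79. The neuronal RNA-binding protein gene elavl3 had 5.69 and 5.12 RPM in the mutants, against 44.0 RPM in the control (-2.81 ± 0.19, limma adjusted p = 0.00454). The transcription factor gene ebf2 had 3.88 and 3.22 RPM in the mutants and 16.9 RPM in the control, and the neuronal sodium pump gene atp1a3a had 2.5 and 2.29 RPM against 15.03 RPM. The fourth called neuronal gene was the synuclein gene sncb, with 0.0287 and 0 RPM in the mutants and 4.81 RPM in the control.

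Of the 23 neural progenitor genes, 7 fell, 16 were at least 2-fold lower in both mutants, and the median was -1.97. The radial glia gene gfap had 1.01 and 1.28 RPM in the mutants, against 15.5 RPM in the control. The progenitor genes msi1, with 2.56 and 2.34 RPM in the mutants against 13.0 RPM, and sox19a, with 2.5 and 2.2 RPM against 12.2 RPM, also fell. Of the 7 tested glial genes, 4 fell, while 3 exceeded the control in both mutants. Among those that fell, the myelin gene plp1a had 1.55 and 0.882 RPM in the mutants and 16.9 RPM in the control. The Schwann cell transcription factor gene pou3f1 had 3.39 and 2.38 RPM in the mutants against 25.0 RPM. The glutamate transporter gene slc1a2b had 1.41 and 0.882 RPM in the mutants and 11.6 RPM in the control. The gene olig2, of motor neuron and oligodendrocyte precursors, had no read in either mutant and 113 implied reads in the control, at least 34.5-fold lower with the 3-read limit per library. No retina gene of 5 tested was called, and 4 were at least 2-fold lower, such as six3b with 0.546 and 0 RPM in the mutants and 3.91 RPM in the control.

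Of 24 tested Notch pathway genes, 5 fell and none rose. The receptor gene notch1b had 13.3 and 12.7 RPM in the mutants, against 70.5 RPM in the control (-2.35 ± 0.17, limma adjusted p = 0.00459). The receptor gene notch1a had 20.6 and 23.4 RPM in the mutants and 60.5 RPM in the control. The ligand gene dla had 5.12 and 4.89 RPM in the mutants, against 28.2 RPM in the control, and dlb had 5.06 and 6.04 RPM against 22.5 RPM. The glycosyltransferase gene lfng, which modifies Notch receptors, had 7.5 and 9.92 RPM in the mutants and 28.6 RPM in the control. The first 4 of these are also neural progenitor genes. The Notch effector symbol her4.2 stands on a pair of rows in the table, and reads of such near-identical copies can be split by the counting. The row off the list (ENSDARG00000056729) was called lower, with 3.70 and 3.53 RPM in the mutants against 18.4 RPM in the control, and the listed row (ENSDARG00000094426), with 12.4 and 14.5 RPM against 24.1 RPM, was not called. The 8 Notch genes shared with the progenitor list had a median of -2.04, while the 16 others had a median of 0.05, with 8 exceeding the control in both mutants and 7 under it.

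In the UAS:Nr2f5 library the neural genes lay near the control. Summed over the list, neural progenitor genes reached 257 and 260 RPM in the mutants, 518 RPM in the UAS:Nr2f5 library and 528 RPM in the control. Neuronal genes reached 95.9 and 94.2 RPM in the mutants, 302 RPM in the UAS:Nr2f5 library and 273 RPM in the control. Outside the lists, chosen after their values were seen, the splicing factor gene nova2 had 20.3 and 19.2 RPM in the mutants and 75.7 RPM in the control (limma adjusted p = 0.0112). The neural zinc finger gene myt1b had 2.82 and 2.07 RPM in the mutants against 20.9 RPM, and the tubulin gene tuba1c had 15.8 and 13.4 RPM against 57.7 RPM.

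Fast muscle genes had the lowest median of the 43 lists. Of 29 tested fast sarcomere and calcium handling genes, 27 fell and 28 were at least 2-fold lower in both mutants, with a median of -4.37. The fast myosin gene myhz1.1 had 3.07 and 6.98 RPM in the mutants, against 207 RPM in the control (-5.19 ± 0.38, limma adjusted p = 0.00459). Its tandem copy myhz1.2 had 0.233 RPM in mutant 1, no read in mutant 2 and 68.6 RPM in the control, though reads of such near-identical copies can be split by the counting. The sarcoplasmic calcium pump gene atp2a1 had 10.98 and 16.4 RPM in the mutants and 297 RPM in the control. The muscle creatine kinase gene ckma had 4.17 and 6.75 RPM in the mutants, against 141 RPM, and the giant sarcomere protein gene ttnb had 14.1 and 8.74 RPM against 317 RPM. The parvalbumin gene pvalb1, of fast calcium buffering, had 1.35 and 1.28 RPM in the mutants and 60.7 RPM in the control.

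The other muscle lists had fewer calls. Of the 11 glycolytic isoenzymes, the muscle aldolase gene aldoab fell, with 0.834 and 0.706 RPM in the mutants and 22.5 RPM in the control, as did gapdh, with 0.920 and 0.970 RPM against 20.6 RPM. Of 13 myogenic regulators, klhl31 was called, with 0.287 and 0 RPM in the mutants and 6.88 RPM in the control, and the list median was -0.66. The satellite cell gene pax7a had 0.546 and 2.25 RPM in the mutants and 5.04 RPM in the control. Of 8 slow and cardiac genes, the calcium store gene casq2 fell, with 0.172 and 0.441 RPM in the mutants and 6.45 RPM in the control. The slow myosin gene smyhc1 had 7.05 RPM in mutant 1, 0.353 RPM in mutant 2 and 41.7 RPM in the control. Summed fast sarcomere genes reached 90.7 and 127 RPM in the mutants, 9287 RPM in the UAS:Nr2f5 library and 2856 RPM in the control, so that the Gal4 libraries differed from each other as well.

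Some genes of skin fell too. Of 22 tested epidermis and periderm genes, 5 were called lower and 14 were at least 2-fold lower in both mutants, with a median of -1.60. The surface keratin gene krt4 had 54.2 and 25.1 RPM in the mutants, against 504 RPM in the control (-3.73 ± 0.42, limma adjusted p = 0.0253). The basal keratin gene krt5 had 1.84 and 1.68 RPM in the mutants and 13.0 RPM in the control, and krtt1c19e had 0.834 and 1.5 RPM against 15.13 RPM. The desmosomal gene ppl had 0.920 and 0.220 RPM in the mutants and 8.98 RPM in the control. Summed epidermal genes reached 311 and 264 RPM in the mutants, 2716 RPM in the UAS:Nr2f5 library and 1010 RPM in the control.

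Most blood genes were low in both mutants, with no call on the lists. Of 14 tested red blood cell genes, 13 were at least 2-fold lower in both mutants, with a median of -2.30. The embryonic globin gene hbae3 had 47.2 and 17.4 RPM in the mutants, against 195 RPM in the control (-2.72 ± 0.52, limma adjusted p = 0.0868). The globin symbol hbbe1.1 stands on a pair of rows: the listed one (ENSDARG00000089963) had 21.9 and 8.75 RPM in the mutants and 83.4 RPM in the control (limma adjusted p = 0.086). The row off the list (ENSDARG00000087390) was called lower, with 17.0 and 9.10 RPM in the mutants and 67.4 RPM in the control (limma adjusted p = 0.0499). The heme synthesis gene alas2 had 4.69 and 1.63 RPM in the mutants and 16 RPM in the control. Of 7 white blood cell genes, 4 were at least 2-fold lower, such as lyz, the lysozyme gene, with 1.93 and 1.81 RPM in the mutants and 7.71 RPM in the control. Of 13 endothelial genes none was called, and 3 were at least 2-fold lower in both mutants. Both mutants fell short of the control for 6 of the 13 and exceeded it for 4. The list summed to 96.8 and 102 RPM in the mutants and 99.0 RPM in the control. These sums include fli1a, the gene behind the GFP sort, which was higher in both mutants than in the control and made up a large part of each sum. Without fli1a, the sums of both mutants lie below that of the control. The vessel gene kdrl had 5.06 and 7.5 RPM in the mutants, on both sides of the 5.81 RPM of the control, while cdh5, of endothelial junctions, had 1.35 and 1.59 RPM against 3.71 RPM.

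**Figure D4:**
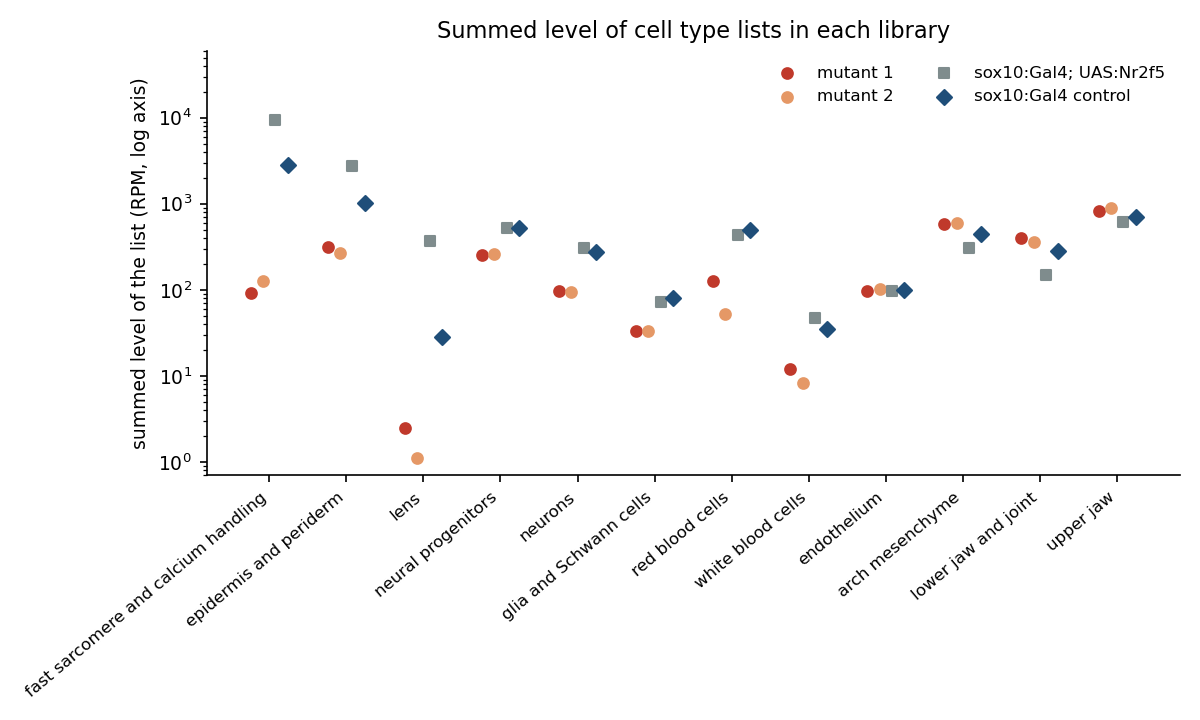
Summed level of the genes of each cell type list (y axis, RPM, log axis) 1 point a library: both mutants, then sox10:Gal4; UAS:Nr2f5 and the control. Muscle, epidermis, lens, neural and blood sums are lower in both mutants than in either Gal4 library. Endothelial sums are alike with fli1a included, and without it both mutants lie below the control. Arch and jaw sums are higher in both mutants.

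Smaller groups of sensory and surface genes followed. Of 11 tested lens genes, the crystallin genes crybb1, with 0.316 and 0.441 RPM in the mutants against 6.04 RPM in the control, and crybb1l1, with 0.0575 and 0.265 RPM against 5.74 RPM, fell. The lens list summed to 2.44 and 1.1 RPM in the mutants, 365 RPM in the UAS:Nr2f5 library and 28.4 RPM in the control. The hatching enzyme gene he1a was called lower, with 0 and 0.397 RPM in the mutants and 4.17 RPM in the control, and was at 0 in the UAS:Nr2f5 library. Of 12 tested pigment cell genes none was called, with a median of -0.33; the pteridine synthesis gene gch2 had 1.21 and 1.90 RPM in the mutants and 10.4 RPM in the control. Of 8 otic genes none was called, with a median of -0.06. Both mutants fell short of the control for 4 of them and exceeded it for 2. Among the latter, the otoconin gene oc90 had 7.19 and 7.72 RPM in the mutants and 2.94 RPM in the control. The 4 tested pharyngeal pouch genes had a median of -0.28 and the 4 fin fold genes one of 0.27, with no calls; among these, the actinodin gene and1 had 0.259 and 0.485 RPM in the mutants and 3.07 RPM in the control.

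Skeletal genes had 1 call between their lists. The 20 tested cartilage genes had a median of 0.13 and no call. The collagen gene col9a1b was the 1 member at least 2-fold lower in both mutants, with 3.33 and 0.265 RPM against 9.12 RPM in the control. The chondrogenic regulator gene sox9a had 68.5 and 83.0 RPM in the mutants and 44.0 RPM in the control, while the collagen gene col11a1a had 37.5 and 34.8 RPM against 60.2 RPM. The 5 bone genes had a median of -0.08, and the osteoblast regulator gene sp7 had 2.67 and 3.62 RPM in the mutants and 1.57 RPM in the control. Of 21 connective tissue matrix genes, col1a1b fell, with 34.2 and 35.8 RPM in the mutants, against 110 RPM in the control (-1.62 ± 0.16, limma adjusted p = 0.0184). It encodes a type I collagen chain; col1a2, another chain of the same trimer, had 172 and 182 RPM in the mutants and 217 RPM in the control. The type VI collagen gene col6a2 lay the other way, with 33.4 and 28.3 RPM in the mutants and 17.6 RPM in the control.

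Lists of general cell state lay near the median of all genes. The 21 genes of DNA replication and mitosis had a median of 0.02, with the replication clamp gene pcna at 110 and 128 RPM in the mutants and 102 RPM in the control. The 15 housekeeping genes had a median of 0.19. Of 22 immediate early and heat shock genes, with a median of 0.11, the chaperone gene hsp90aa1.1, which is used in muscle, fell, with 0 and 0.182 RPM in the mutants and 5.28 RPM in the control.

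The 66 genes at least 2-fold higher in both mutants included the 3 called ones described above. Outside the lists, the transcriptional co-regulator gene cited2 had 7.04 and 12.8 RPM in the mutants, 2.17 RPM in the UAS:Nr2f5 library and 1.74 RPM in the control (1.94, limma adjusted p = 0.109). The unnamed gene si:dkey-153m14.1 had 404 and 703 RPM in the mutants, 311 RPM in the UAS:Nr2f5 library and 138 RPM in the control. The unnamed gene si:dkey-77p23.6 had 38.7 and 63.6 RPM in the mutants, 60.4 RPM in the UAS:Nr2f5 library and 13.2 RPM in the control, so for both of these genes the UAS:Nr2f5 library also lay above the control. The matrix gene mxra5a had 8.91 and 13.7 RPM in the mutants, 3.75 RPM in the UAS:Nr2f5 library and 3.77 RPM in the control. Another matrix gene, efemp2a, had 17.4 and 18.4 RPM in the mutants, 7.90 RPM in the UAS:Nr2f5 library and 7.01 RPM in the control. In each of these both mutants were at least 2-fold above the control.

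The mutant libraries differed from each other too. Of the 11391 genes, 208 (1.83%) were at least 2-fold higher in mutant 1 than in mutant 2 and 118 (1.04%) at least 2-fold lower. Of the 14 red blood cell genes, 9 were at least 2-fold higher in mutant 1, with a median difference of 1.1 between the mutants. Of the 29 fast muscle genes, 6 were at least 2-fold lower in mutant 1, among them mylpfa, a myosin light chain gene, with 2.33 RPM in mutant 1 and 11.1 RPM in mutant 2. The largest gaps upward in mutant 1 among genes averaging 5 RPM or more were those of smyhc1, epha2a, col9a1b, the keratin gene cyt1 and gadd45gb.1. The upper jaw, lower jaw and arch mesenchyme lists had no gene 2-fold apart between the mutants. The same held for many other lists, such as early neural crest, lens and Fgf response.

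Genes beside the mutated ones were looked up by gene order in RefSeq's GRCz12tu assembly, on chromosome 18 for nr2f2 and 16 for nr2f5. Of the 3 genes on each side, mctp2a, lysmd4, bola1 and rpz3 were under the level filter and not tested. None of the others was called, where 1.04% of all genes tested were. Beside nr2f2, the chromatin remodeller gene chd2 had 37.7 and 37.2 RPM in the mutants and 24.4 RPM in the control, and rgma had 15.5 and 9.52 RPM against 17.5 RPM. Beside nr2f5, the synaptic vesicle gene SV2A had 0.604 and 0.0441 RPM in the mutants and 2.84 RPM in the control (limma adjusted p = 0.147). It was the one neighbour at least 2-fold lower in both mutants. SV2A is also on the neuron list, where 18 of 25 tested genes were at least 2-fold lower in both mutants.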

How the data were processed

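RNA of sorted arch cells was made into cDNA with the SMARTer kit and sequenced on a NextSeq 500, per the labels' protocols. The tools and build named in the submitters' processing notes are TopHat2, Partek and GRCz10; versions are not given in the sources used here. The deposited table names its values TPM. They were taken as RPM, as deposited by the authors: within 0.02 read, 88.4% to 94.0% of the values between 0.5 and 1000 reads were a whole number of 1 step per library, for any gene. The rest were fractional, so no count test was run, and the planned test was kept. Column sums were 14.8% to 15.8% of the full scale.

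limma 3.58.1 in R 4.3.3 (lmFit, then eBayes with a trend) took log2(RPM + 1) of all 4 libraries, 1 mean per group, for genes averaging 1 RPM or more, with Benjamini-Hochberg adjustment. The mutant pair supplies its single (1) residual degree of freedom. p-values and SEs measure the spread between those libraries, which may be technical. For each gene limma weighs its own spread (1 degree of freedom) with that of genes of similar level (5.01 prior degrees of freedom). The p-values and SEs therefore rest more on the second than on the gene's own spread. The size rule is a difference of at least 1 on the log2 scale in both mutants. Precision follows from the implied reads in genes, 5286226 and 3590904 in the mutants and 4467225 in the control, and limits for 0 reads cover counting error only, since reads without molecular identifiers are not independent molecules.

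The 43 lists hold 727 genes, 718 of them found in the table (21 by way of reference names); some genes are on several lists, a symbol with several rows is taken at the row with the highest mean, and 1 list is not reported here. Members and lists were chosen with earlier results of these data known. Genes were named from sets given by rule. These were the nr2f family and the 15 largest differences among called genes in each direction (filled with 2-fold genes averaging 5 RPM or more). Up to 5 members of each list with the largest difference and any called member were also allowed. So were the 10 called genes highest in the control, 5 genes each way between the mutants, neighbours, and any jaw gene. Not every gene of these sets is named, and called genes left out include acta1b, ckmb and icn2. List members named beyond these sets were chosen after their values were seen. Alternatives were other pseudocounts, filters, scalings and variance estimates, and leaving out libraries.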

Additional observations from a re-analysis of the deposited data

How the results depend on the processing

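Of the 118 calls, 19 held under every alternative other than no filter, all of them muscle genes such as ckma, pvalb1, tnnc2 and ttna. The number of calls was 22 with a pseudocount of 0.1, 24 without a trend, 200 with early neural crest scaling, 350 with 3 libraries in the fit, 383 with robust estimation and 413 with a minimum mean of 5 RPM, and 128 and 111 with a pseudocount of 5 and median-ratio scaling. With no filter limma called 0 genes at an adjusted p under 0.05 and 3803 at an unadjusted p under 0.05; the smallest adjusted p was 0.0694. Of the calls with a minimum mean of 5 RPM, 37.3% were higher in the mutants, against 2.54% in the reported fit; limma set an infinite prior degree of freedom there, and its smallest adjusted p was 1.18e-126. The number of genes 2-fold apart in both mutants was 676, and became 1164 and 154 with pseudocounts of 0.1 and 5 and 219 with a minimum mean of 5 RPM; against 1 mutant alone it was 929 to 1145. Between the mutants 326 genes were 2-fold apart, against 1381 and 12 with those pseudocounts, 497 with no filter and 51 with a minimum mean of 5 RPM. The cause was not tested. Leaving out a mutant gives no called count, since no residual degree of freedom is left. After early neural crest scaling, genes with small positive differences turned negative: nr2f1a (-0.13), nr2f1b (-0.20), nr2f6a (-0.036), dlx2a (-0.073), dlx3b (-0.0055), dlx4a (-0.022), dlx4b (-0.18), ednraa (-0.34), foxd1 (-0.20), hoxa2b (-0.24), kdrl (-0.24), pcna (-0.15) and prrx1b (-0.12). With median-ratio scaling ednraa did (-0.022). Leaving out 1 mutant at a time gave -0.0024 to 0.30 for nr2f1b, -0.25 to 0.12 for nr2f6b, -0.23 to 0.50 for dlx4b, -0.044 to 0.052 for ednraa, -0.31 to 0.47 for hoxa2b and -0.17 to 0.32 for kdrl. No paired analysis was possible because there is 1 control library and the labels name no pairs. The reported fit leaves out genes averaging under 1 RPM by choice: 11391 genes were tested with that filter and 22546 with none. Depth limits low genes to a step of 0.0287 to 0.0441 RPM a read in the mutants and 0.0334 RPM in the control.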

Other observations

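Some genes rounded to 0 implied reads in 1 of the groups. Of the 31953 genes in the table, 160 were at 0 in both mutants with at least 20 implied reads in the control. Another 60 were at 0 in the control with at least 10 reads in each mutant. The rules ask for unlike numbers of reads, so these counts cannot be compared with each other. The first set held muscle genes such as hhatla, with 201 implied reads in the control and at least 61.4-fold lower in the mutants with the 3-read limit per library, and myhc4, with 110. It also held the hatching enzyme gene he1b, with 77 implied reads in the control and none in the UAS:Nr2f5 library. The gene of the second set with the most reads was si:dkey-259g19.2, with 4.66 and 2.21 RPM in the mutants, at least 34.3-fold higher than the limit of the control.

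Of the 115 genes that fell, 113 were higher in the UAS:Nr2f5 library than in both mutants, and in 88 the UAS:Nr2f5 library was at or above the control. The matching shares over all genes tested were not taken. These genes were selected for low mutant values, and the level filter included the UAS:Nr2f5 library, so the counts are no separate support. By mean level over all 4 libraries, 6.86% of the genes from 1 to 5 RPM and 3.73% of those from 5 to 20 RPM were at least 2-fold lower in both mutants. The shares were 2.56% from 20 to 100 RPM and 9.14% for the 175 genes at 100 RPM or more. At least 2-fold higher were 0.64%, 0.574%, 0.311% and 0.571%, in the same order. A gene can enter a level group through its value in the UAS:Nr2f5 library or the control. These shares therefore do not separate level from the difference itself. Date serial numbers had replaced 19 gene symbols in the table. Of these genes 1 was called, ENSDARG00000096271, with 0.0679 and 0.000846 RPM in the mutants and 5.19 RPM in the control. In the UAS:Nr2f5 library it had 6.49e-12 RPM. ENSDARG00000096375, under the same serial number, was not called. It had 1.84 and 1.49 RPM in the mutants, 10.9 RPM in the UAS:Nr2f5 library and 7.3 RPM in the control. Whether the counting split reads between these rows was not tested.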
